A study of Mus musculus with 68 samples.

Results

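Messenger RNA of 6 ER-phagy receptor genes was followed in mouse embryonic fibroblasts (MEFs) before and after ER stress. ER-phagy is the selective removal of pieces of the endoplasmic reticulum (ER) by autophagy. A receptor in the ER membrane binds LC3 or GABARAP proteins on the growing autophagosome and so ties a stretch of ER to it. Different receptors serve different parts of the ER, and the process takes away surplus or damaged ER during and after stress. The receptors named were Fam134a, Fam134b, Fam134c, Rtn3, Ccpg1, Tex264 and Sec62, 7 genes chosen by name with their level and their change in each genotype already known. Fam134a, Fam134b and Fam134c are now called Retreg2, Retreg1 and Retreg3. Of the 7, 6 had a row in both sets of tables, among 13197 genes listed for the founder strains and 12803 for the F1 crosses. Ccpg1 was not analysed here. Since these contrasts were in view when the genes were chosen, the values of the receptors are a description, and no p is given for them.

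The MEFs came from the 8 inbred founder strains of the Collaborative Cross, a mouse reference population, and from 5 F1 crosses. The founders were 129S1Sv/ImJ (129), A/J (A), C57BL/6J (B6), CAST/EiJ (CAST), NOD/ShiLtJ (NOD), NZO/H1LtJ (NZO), PWK/PhJ (PWK) and WSB/EiJ (WSB), and the crosses had a B6 mother and a 129, CAST, NOD, NZO or WSB father (x129, xCAST, xNOD, xNZO and xWSB). MEFs of each genotype were mixed from female littermates of a single litter, so genotype and litter cannot be told apart. Low-passage cells received tunicamycin (TM) at 2 ug/ml for 4 h or 0.1% DMSO, the control and the solvent of TM. TM blocks N-linked glycosylation, so that unfolded proteins build up in the ER. The study asked how the response to ER stress differs between genotypes. There were 40 founder libraries (18 control, 22 TM) and 28 F1 libraries (14 and 14), with 2 or 3 libraries per genotype and treatment. The spread between libraries is that between cultures of 1 cell stock, which may be technical.

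Libraries with recovered read numbers held between 6442976 and 29528457 reads on genes. In the founder set the median was 10730220 reads in TM libraries and 14072068 in controls. Values are reads per gene scaled to library size by the authors (TMM), without division by gene length. In 129 TM replicate 1, 9384677 reads on genes gave values that summed to 978760. Founder and F1 sets were scaled apart, so levels are compared only within a set. Fibroblast markers summed to between 18179 and 55934 in founder libraries, against at most 58.3 for 6 myeloid, 17.9 for 4 endothelial and 78.3 for 3 listed epithelial markers. The macrophage marker Adgre1 was listed at 0 in 10 of 40 founder libraries and the epithelial marker Cdh1 in 14. Itgam and Cdh5 were at 0 in 2 founder libraries each and Ptprc in 1, and the remaining listed markers in none. The epithelial Krt18 had a median of 11.6 and reached 61.6, and Krt8 reached 24.0. The myeloid Lyz2 reached 43.1 and Csf1r 9.53. Among the fibroblast markers Thy1 ran from 1.38 to 654, and Pdgfra had a median of 13.8. The fibroblast sum had a median of 38272 in founder controls and 27383 with TM, and its part in the changes below was not tested. In bulk RNA, fewer cells of a kind and less RNA per cell cannot be told apart.

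Fam134c was the receptor with the largest difference between TM and control, and it was lower with TM in all 13 genotypes. It is a close relative of Fam134b and, like it, carries a hairpin-forming reticulon domain that bends the ER membrane. The gene (ENSMUSG00000017802) lies on the minus strand at chr11:101096322-101119893 of GRCm38. Founder controls ran from 24.6 to 43.0 with a median of 30.5, and founder TM libraries from 6.78 to 14.1 with a median of 11.9. F1 controls ran from 21.3 to 29.4 with a median of 23.8, and F1 TM libraries from 4.03 to 13.3 with a median of 9.99. In neither set did any TM library reach the lowest control. Averaged over the founders the log2 change was -1.48 (SE 0.07), 2.78-fold lower, and over the F1 crosses -1.42 (SE 0.10), 2.67-fold lower. That put Fam134c at rank 15 from the lowest change among 13193 genes in the founders and at rank 30 among 12758 in the F1 crosses, where the median of all genes was -0.04 in both. TM values rested on 65 to 232 reads per founder library with recovered reads, and control values on 257 to 623.

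By strain, the lowest TM levels of Fam134c came from single libraries rather than from whole groups. In 129 the controls read 32.3 and 38.0 and the TM libraries 6.78, 10.2 and 11.9. In A the controls read 43.0, 31.9 and 35.3 and the TM libraries 12.2, 6.90 and 12.96. These strains had the largest founder differences, and in each of them 1 TM library stood well below the others. In WSB the controls read 38.3 and 37.8 and the TM libraries 9.65, 12.5 and 12.3. In B6 the controls read 27.9 and 27.8 and the TM libraries 10.9 and 10.2. In CAST the controls read 24.6 and 28.7 and the TM libraries 10.2 and 10.1. In these 3 strains TM libraries lay between 9.65 and 12.5 and controls at or above 24.6. In NOD the controls read 27.97 and 32.9 and the TM libraries 12.2, 13.2 and 13.6. In NZO the controls read 29.9 and 31.2 and the TM libraries 13.9, 14.1 and 13.9. In PWK the controls read 26.1, 25.2 and 26.7 and the TM libraries 9.17, 11.4 and 11.9. In all 8 strains the gap between treatments was wider than the spread of the libraries within either treatment. NZO kept the highest TM level, above every TM library of the other 7 strains.

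**Figure D1:**
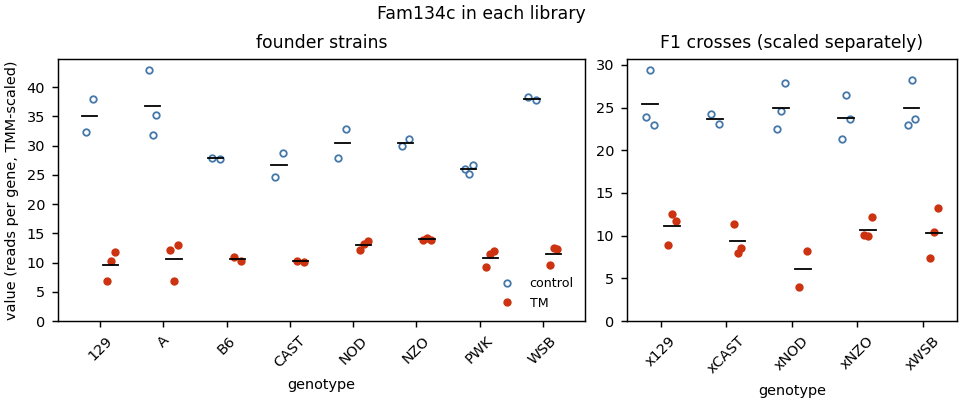
Fam134c in each of the 68 libraries, by genotype, as TMM-scaled reads per gene on a linear axis (open blue circles control, filled red circles TM, bars group means; founders left, F1 crosses right and scaled separately). TM libraries lie below control libraries in all 13 genotypes, with founder controls between 24.6 and 43.0 and founder TM libraries between 6.78 and 14.1.

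The founder log2 changes of Fam134c ran from -1.89 (SE 0.26) in 129, 3.71-fold lower, to -1.12 (SE 0.13) in NZO, 2.18-fold lower. Between them came A at -1.81 (SE 0.28), WSB at -1.73 (SE 0.19), B6 at -1.39 (SE 0.12), CAST at -1.38 (SE 0.15), PWK at -1.26 (SE 0.12) and NOD at -1.22 (SE 0.14). The 3 strains with the largest differences were also the 3 with the highest control means, WSB at 38.1, A at 36.7 and 129 at 35.2, and the control level enters both quantities. TM means ran from 9.62 in 129 to 14.0 in NZO, and the ratio of the highest to the lowest strain mean was 1.46 in controls and 1.45 with TM. Ordered by control mean, each strain overlapped the next except B6 below NOD and NZO below 129.

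In the F1 crosses the control means of Fam134c lay between 23.7 in xCAST and 25.4 in x129, and each cross overlapped the next. In x129 the controls read 23.9, 29.4 and 23.0 and the TM libraries 8.93, 12.6 and 11.7. In xCAST the controls read 24.2 and 23.1 and the TM libraries 11.4, 8.01 and 8.57. Fam134c was 2.30-fold lower with TM in x129 and 2.55-fold lower in xCAST, without overlap in either. In xNOD the controls read 22.5, 24.6 and 27.8 and the TM libraries 4.03 and 8.21. This cross had the largest difference of all 13 genotypes, -2.09 (SE 0.29), with a TM library at 4.03 that rested on 66 reads. In xNZO the controls read 21.3, 26.5 and 23.7 and the TM libraries 10.0, 9.95 and 12.1. In xWSB the controls read 22.9, 28.2 and 23.7 and the TM libraries 7.34, 10.5 and 13.3. The log2 changes of these crosses were -1.15 (SE 0.14) in xNZO and -1.29 (SE 0.24) in xWSB, again without overlap. Beside the parents, the change was smaller than in both in x129, xCAST and xWSB, between them in xNZO and larger than in both in xNOD. The difference between cross and parents was not tested.

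With every TM library below every control in all 13 genotypes, Fam134c was 1 of 194 such genes among 12609 (1.54%). A limma adjusted p below 0.01 together with a change of 1.5 fold within a genotype was the rule for a call, and it was met for Fam134c in 9 of 13 genotypes, namely B6, CAST, NOD, PWK, WSB, x129, xCAST, xNOD and xNZO. The share of all genes lower by it was 3.22%, 0.478%, 0.165%, 4.3%, 4.2%, 1.36%, 1.2%, 4.6% and 0.152% in that order, and 1.52% over all pairs of gene and genotype. In 129, A, NZO and xWSB, where Fam134c did not meet it, 1 or 2 genes in all did so as lower (0.00787%, 0.00786%, 0.0078% and 0.0161%). These counts carry no weight of their own, since the change was known when the gene was chosen. The call in NOD was lost without any 1 of its TM libraries. It was lost in xNOD without any 1 of its controls, in xCAST without control replicate 2 or TM replicate 2, and in xNZO without control replicate 2 or any TM library. It was gained in 129 without TM replicate 1 or 3 and in NZO without TM replicate 3. In 1 fit over each set all 13 genotypes met the rule, and with a prior variance without trend only 2 did, PWK and x129.

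The promoter of Fam134c is shown because it can be set beside the known stress elements. The 300 bases below run from 250 before the RefSeq start of the gene, chr11:101119792-101120091 on the minus strand of GRCm38.p6. Capitals mark matches to CCAAT, the box bound by the factor NF-Y, or to CCACG, which is part of ER stress elements, on either strand.

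Fam134c: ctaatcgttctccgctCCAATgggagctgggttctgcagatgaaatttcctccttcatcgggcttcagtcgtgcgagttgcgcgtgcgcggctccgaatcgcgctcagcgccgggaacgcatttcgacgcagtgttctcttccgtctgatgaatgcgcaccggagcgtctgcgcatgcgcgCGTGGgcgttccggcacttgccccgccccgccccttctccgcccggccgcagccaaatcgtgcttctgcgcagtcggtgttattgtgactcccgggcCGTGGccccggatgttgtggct

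Counted with the start base as 0, the CCAAT match lay at -234 to -230 and the CCACG matches, both on the opposite strand, at -69 to -65 and 28 to 32. A CCAAT match was present in 37.4% and a CCACG match in 32.8% of 32851 promoters of this length. Also searched on both strands were the full ER stress element, CCAAT and CCACG with 9 bases between them (0.119% of promoters), ERSE-II, ATTGG and CCACG with 1 base between them (0.0365%), the XBP1 element TGACGTGG (0.676%) and the ATF4 and C/EBP element TGATGNAAT (0.965%). None of these 4 occurred in this window, nor in the windows of the other receptors.

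Sec62 stood opposite to Fam134c. It is a subunit of the translocon machinery that carries proteins into the ER, and it serves as a receptor for ER that is removed once stress ends. The gene (ENSMUSG00000027706) lies at chr3:30792875-30821263 on the plus strand. Founder controls ran from 84.8 to 156 with a median of 108, and founder TM libraries from 117 to 206 with a median of 147. F1 controls ran from 75.0 to 119 with a median of 88.2, and F1 TM libraries from 99.9 to 176 with a median of 124. The averaged log2 change was 0.42 (SE 0.06), 1.34-fold higher, in the founders and 0.49 (SE 0.05), 1.401-fold higher, in the F1 crosses. The mean was higher with TM in all 13 genotypes.

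In 129 the Sec62 controls read 107 and 104 and the TM libraries 194, 178 and 150. In WSB the controls read 91.6 and 127 and the TM libraries 206, 170 and 148. These strains had the largest founder differences, 0.72 (SE 0.16) and 0.68 (SE 0.19), and their TM libraries lay clear of the controls. In A the controls read 142, 101 and 98.0 and the TM libraries 128, 187 and 134. In NOD the controls read 156 and 106 and the TM libraries 139, 147 and 137. In both strains 1 control was as high as TM libraries, the groups overlapped, and the changes were 0.40 (SE 0.24) and 0.13 (SE 0.16). The other 4 founders lay between 0.23 (SE 0.09) in PWK and 0.44 (SE 0.08) in B6. In xNOD the controls read 98.8, 97.1 and 84.9 and the TM libraries 154 and 140. This was the largest F1 change, 0.65 (SE 0.11), 1.57-fold higher, and the smallest was 0.38 (SE 0.10) in xNZO.

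Every TM library of Sec62 exceeded every control in 11 of 13 genotypes, all but A and NOD, a state that held for 21.3% of all pairs of gene and genotype. The rule of adjusted p below 0.01 and 1.5 fold was met in xNOD alone, where 3.69% of genes were higher by it (2.45% over all genotypes). That call was lost without any 1 of the 3 xNOD controls and was gained in 129 without TM replicate 3.

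**Figure D2:**
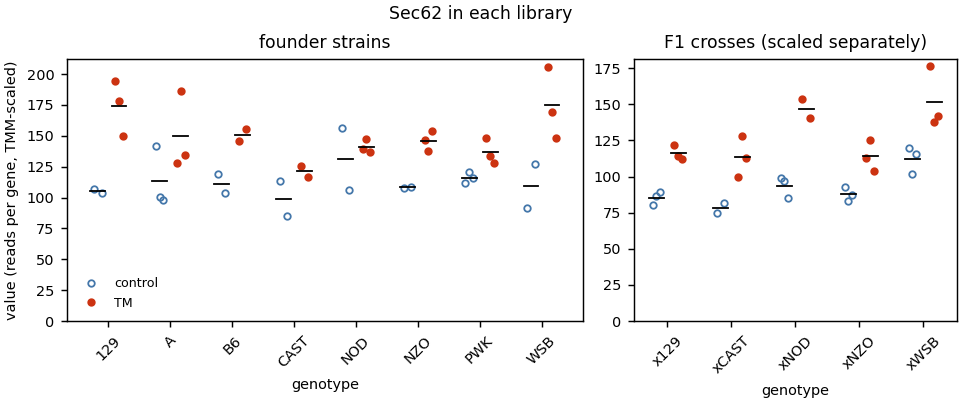
Sec62 in each of the 68 libraries, by genotype, as TMM-scaled reads per gene on a linear axis (open blue circles control, filled red circles TM, bars group means; founders left, F1 crosses right and scaled separately). TM means are above control means in all 13 genotypes, and the groups overlap in A and NOD.

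The promoters of Sec62 and Fam134a are shown because both hold TCACGTGA, an E-box flanked as in the sites bound by the lysosome and autophagy factor TFEB, which 0.974% of the 32851 promoters hold. The windows are chr3:30792626-30792925 and chr1:75142536-75142835, both on the plus strand of GRCm38.p6, from 250 bases before the RefSeq start. Capitals mark TCACGTGA, its core CACGTG (7.15% of promoters) and CCACG on either strand.

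Sec62: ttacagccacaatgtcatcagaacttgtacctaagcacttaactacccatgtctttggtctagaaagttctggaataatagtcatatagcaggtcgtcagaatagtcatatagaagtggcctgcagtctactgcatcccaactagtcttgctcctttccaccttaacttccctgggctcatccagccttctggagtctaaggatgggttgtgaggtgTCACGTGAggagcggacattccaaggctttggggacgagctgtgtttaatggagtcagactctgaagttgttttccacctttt

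Fam134a: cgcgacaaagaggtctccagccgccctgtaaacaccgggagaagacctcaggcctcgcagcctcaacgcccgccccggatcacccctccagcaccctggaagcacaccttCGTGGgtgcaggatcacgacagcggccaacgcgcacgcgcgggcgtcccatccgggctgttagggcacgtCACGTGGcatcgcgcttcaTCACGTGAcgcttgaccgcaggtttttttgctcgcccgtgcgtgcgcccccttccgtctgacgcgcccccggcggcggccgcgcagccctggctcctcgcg

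In Sec62 the match lay at -33 to -26 and in Fam134a at -51 to -44. Fam134a held a further CACGTG at -70 to -65, which overlapped a CCACG match on the opposite strand at -68 to -64. The levels of these genes did not move the same way with TM, as Sec62 was higher and Fam134a lower on average.

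Fam134a and Fam134b, the other members of the Fam134c family, differed little between treatments. Fam134a (ENSMUSG00000049339, chr1:75142778-75147913) ran from 28.8 to 52.4 in founder controls, median 35.3, and from 22.8 to 42.4 with TM, median 28.9. Its averaged log2 change was -0.25 (SE 0.06) in the founders and -0.19 (SE 0.08) in the F1 crosses. The mean was lower with TM in 11 of 13 genotypes, all but WSB and xWSB, and the libraries did not overlap in 5 of them (129, CAST, PWK, xNOD and xNZO), against 22.4% of all pairs of gene and genotype with every TM library below every control. In PWK the controls read 40.4, 34.6 and 34.8 and the TM libraries 27.5, 24.9 and 28.003. In A the controls read 52.4, 33.4 and 32.1 and the TM libraries 25.8, 22.8 and 32.6. A had the largest founder difference, -0.52 (SE 0.26), and there 1 control stood far above the others and the groups overlapped.

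Fam134b (ENSMUSG00000022270, chr15:25843180-25973687), the receptor best known for the turnover of ER sheets, had the lowest level of the 6. Founder controls ran from 4.36 to 8.47, median 6.03, and TM libraries from 4.98 to 11.9, median 7.06. F1 controls ran from 2.69 to 5.12 and TM libraries from 3.06 to 4.88. The averaged log2 change was 0.21 (SE 0.07) and 0.13 (SE 0.09), and the mean was higher with TM in 10 of 13 genotypes, all but WSB, xNZO and xWSB. The TM libraries lay above the controls in 6 genotypes (B6, CAST, NOD, PWK, xCAST and xNOD), against 21.3% of all pairs of gene and genotype. In PWK the controls read 7.90, 7.32 and 8.47 and the TM libraries 11.9, 11.2 and 9.48. PWK had the highest mean of Fam134b under both treatments, and its TM libraries lay above those of every other founder. A founder library held between 40 and 161 reads of Fam134b.

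**Figure D3:**
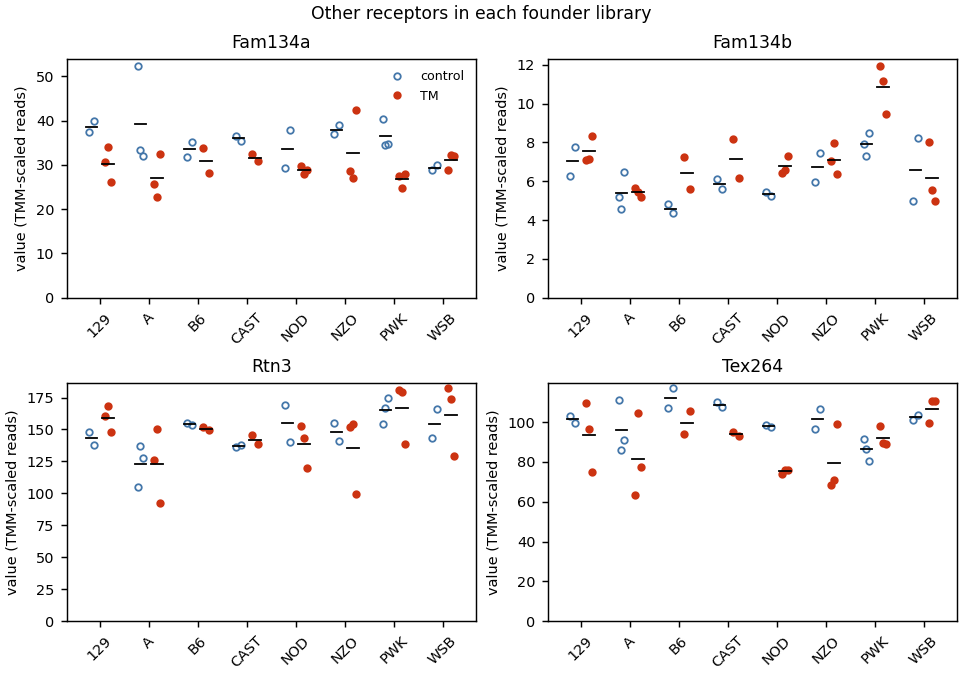
Fam134a, Fam134b, Rtn3 and Tex264 in each of the 40 founder libraries, as TMM-scaled reads per gene on linear axes with their own scales (open blue circles control, filled red circles TM, bars group means). Treatments overlap in 5 of 8 strains for Fam134a, Rtn3 and Tex264 and in 4 of 8 for Fam134b, and PWK stands highest for Fam134b with TM libraries of 11.9, 11.2 and 9.48.

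Rtn3 and Tex264, at higher levels, also differed little between treatments. Rtn3 (ENSMUSG00000024758, chr19:7425901-7483281), a reticulon of ER tubules whose long form acts as the receptor, was counted over all its forms together. Its exons overlap the opposite-strand gene 2700081O15Rik, and the strand setting of the counting is not given in the sources used here, so their reads may be shared. Founder controls ran from 105 to 175, median 146, and TM libraries from 92.8 to 182, median 150. The averaged log2 change was -0.01 (SE 0.06) in the founders and -0.12 (SE 0.09) in the F1 crosses, with a higher mean in 6 and a lower mean in 7 genotypes. Of the TM libraries of a genotype the one numbered 3 was the lowest for Rtn3 in all 12 genotypes that had it. In NZO the controls read 155 and 141 and the TM libraries 152, 154 and 99.3. Without those 12 libraries the averages were 0.09 and -0.02. Leaving out the lowest TM libraries could only raise them.

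Tex264 (ENSMUSG00000040813, chr9:106658746-106685927), a single-pass ER membrane protein, ran from 80.7 to 117 in founder controls, median 100.3, and from 63.3 to 110 with TM, median 93.3. The averaged log2 change was -0.17 (SE 0.06) and -0.15 (SE 0.07), and the mean was lower in 11 of 13 genotypes, all but PWK and WSB. In NOD the controls read 98.3 and 97.6 and the TM libraries 73.7, 75.9 and 76.2. NOD had the largest difference, -0.38 (SE 0.10). The TM libraries lay below the controls in 4 genotypes (NOD, B6, CAST and x129), against 22.4% of all pairs of gene and genotype. In PWK the controls read 91.5, 86.7 and 80.7 and the TM libraries 98.0, 89.3 and 89.0. There the treatments overlapped, with a change of 0.09 (SE 0.09).

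**Figure D4:**
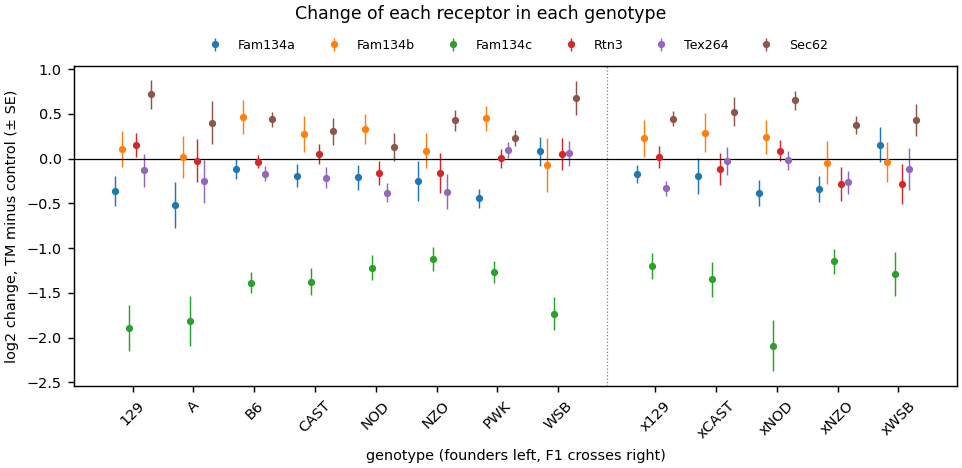
Log2 change (TM minus control) of the 6 receptors in each of the 13 genotypes, with bars of 1 SE (founders left of the dotted line, F1 crosses right). Fam134c lies between -2.09 and -1.12, below every other receptor in every genotype, and Sec62 lies above 0 in all 13.

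Divided by exon length, the receptors formed 3 tiers in founder controls. Per kb of exon the median level was 34.9 for Tex264, 29.0 for Rtn3 and 24.96 for Sec62, and the ranges of these 3 overlapped. Fam134a at 11.8 and Fam134c at 8.51 came next and overlapped each other but not the tier above. Fam134b at 1.46 lay below every library of the others. With TM the order changed, and Sec62 at 33.8 per kb stood level with Tex264 at 32.5 and Rtn3 at 29.8. Fam134c at 3.32, with a range of 1.89 to 3.94, then overlapped Fam134b at 1.70, with a range of 1.20 to 2.88. The controls of the F1 crosses gave the same order, from 31.4 for Tex264 to 0.81 for Fam134b.

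Between strains, control levels of the receptors spread by 1.30-fold (Tex264) to 1.72-fold (Fam134b) from the lowest to the highest strain mean. The limma test of a strain effect on control level, at an adjusted p below 0.01, was met by 0 of 6 receptors, against 35.6% of 13080 genes, and by 0 of 6 in edgeR, against 37.7%. At an unadjusted p below 0.05, 1 of the 6 passed, against 58.6% of all genes. Without control replicate 1 of A, the library with the highest Fam134c, Fam134c and Tex264 met the rule, and without control replicate 2 of A Fam134c met it. The change with TM differed between strains for 0 of 6 receptors by the limma interaction test, against 0.174% of 13193 genes, for 0 at an unadjusted p below 0.05, against 3.91%, and for 0 in edgeR, against 0.121%. The counts of the level and interaction tests carry no weight of their own, since both quantities were known when the genes were chosen. With 2 or 3 libraries per group the SEs of the Fam134c changes were 0.12 to 0.28, and differences between strains of that order could not be told at this depth.

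After the mean of each founder strain was taken out, Fam134c and Sec62 ran opposite to each other over the 40 founder libraries (r = -0.83) and over the 28 F1 libraries (r = -0.96). These libraries share the treatment, so the difference between TM and control is part of each r. With the mean of each genotype and treatment taken out as well, r was -0.53 and -0.73. An opposite course on this last measure was not particular to Sec62. There Fam134c had r = -0.54 and -0.52 with Rtn3 and -0.48 and -0.42 with Tex264, founders first. With Fam134a r was 0.37 and 0.61, and with Fam134b -0.03 and 0.01. The 129 TM library with the lowest Fam134c (6.78) had the highest Sec62 of its group (194), and so had the A library at 6.90 (187) and the xNOD library at 4.03 (154). The part of depth and scaling in these correlations was not tested.

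Among the genes most like Fam134c over the 40 founder libraries, centred on strain, were Speg (r = 0.976), Mrc2 (0.973), Wdr81 (0.973) and Rnf145 (0.972), ranked among 10015 genes. Over the 28 F1 libraries the same correlations were 0.946, 0.964, 0.951 and 0.963. Rnf145 is an ER ubiquitin ligase of sterol control and Mrc2 is a collagen uptake receptor. These 4 were lower with TM, with founder log2 changes between -1.11 (Wdr81) and -0.59 (Rnf145). The genes most like Sec62 were Exosc9, a subunit of the RNA exosome (r = 0.974, F1 0.952), and Npm1, a nucleolar protein (0.966, F1 0.948). Tex264 was most like Nubp2 (0.921, F1 0.909), Fam134a most like Map6 (0.904, F1 0.643), Rtn3 most like Degs1 (0.902, F1 0.690) and Fam134b most like Trim23 (0.701, F1 0.435). The runners-up were Fuca1 (0.902), Tbc1d10b (0.904), Laptm4a (0.895) and Zbtb11 (0.700). Each r is a description across libraries that differ in treatment and depth, and the difference between TM and control is part of it.

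Around the receptors, 82 genes of the pathway in 9 lists were tested in the effect averaged over a set (limma, adjusted p below 0.01, any fold). The lists were chosen with earlier results of these data known, so their counts and adjusted p values are a description. In the founders 34 were higher, 11 lower and 37 past neither, against 20.5% higher and 21.9% lower of all genes. In the F1 crosses the counts were 30, 11 and 41, against 17% and 18.7%. The counts of higher genes include the 9 reference genes of the unfolded protein response, all of them higher in both sets. With libraries blocked by replicate number the founder counts were 24 higher and 5 lower. By the same rule Sec62 was higher and Fam134a and Fam134c were lower in the founders, and Sec62 higher and Fam134c lower in the F1 crosses, which is given beside the lists with nothing read from it. The median log2 change of the 6 receptors was -0.09 in the founders and -0.13 in the F1 crosses. That of the 82 genes, reference genes included, was 0.10 in both.

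The reference genes of the unfolded protein response, which rise when unfolded proteins collect in the ER, were higher in 9 of 9 cases in both sets, with a founder median of 2.75. Herpud1, an ER-associated degradation factor, rose by 4.30 (SE 0.04, limma adjusted p = 2.1e-34) and Ddit3, the factor CHOP, by 3.90 (SE 0.09, limma adjusted p = 1.5e-24). Against these the largest rise of a receptor, that of Sec62 at 0.42, was small.

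Among 8 other ER-phagy and cargo receptors 4 rose and 1 fell in the founders. Sqstm1, the cargo adaptor p62, rose by 0.61 (limma adjusted p = 5.0e-11) and Cdk5rap3, a soluble receptor tied to UFMylation, by 0.38 (limma adjusted p = 0.0027). Calcoco1, a soluble ER-phagy receptor, fell by 0.24 in the founders (limma adjusted p = 0.0054) and had a change of -0.21 in the F1 crosses (limma adjusted p = 0.015). Of 16 ER-shaping proteins 4 rose and 3 fell. Lnpk, which sits at ER tubule junctions, rose by 0.66 (limma adjusted p = 2.2e-08) and Ktn1, an ER sheet protein, by 0.50 (limma adjusted p = 2.2e-07). Reep2 fell by 0.40 (limma adjusted p = 0.0024) and the reticulon Rtn2 by 0.27 (limma adjusted p = 0.0094), both at low levels. Neither passed in the F1 crosses, with changes of -0.41 (limma adjusted p = 0.14) and -0.33 (limma adjusted p = 0.025).

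**Figure D5:**
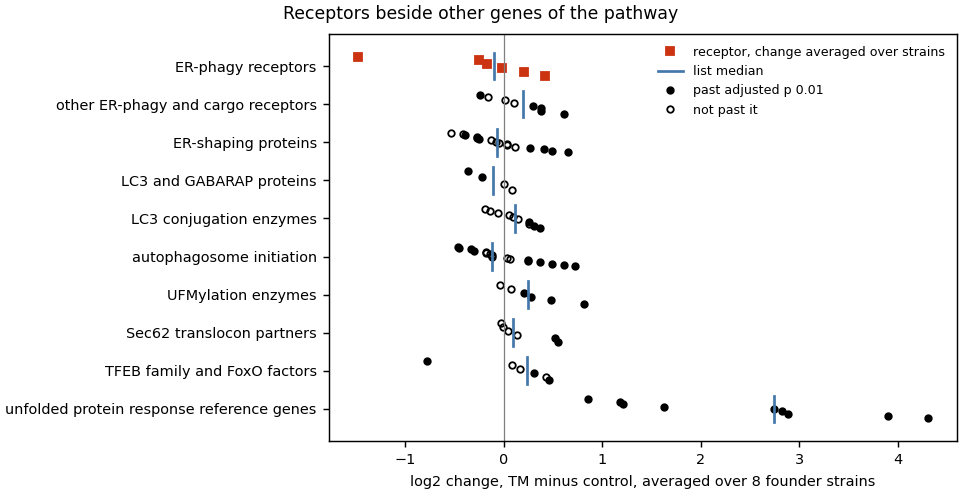
Log2 change (TM minus control) averaged over the 8 founder strains for the 6 receptors (red squares, no test shown) and the genes of 9 pathway lists (filled circles past a limma adjusted p of 0.01, open circles not past it; blue bars list medians). Fam134c at -1.48 lies below all 82 pathway genes, and the reference genes of the unfolded protein response, with a median of 2.75, lie above every receptor.

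Sec62's partners in the translocon split. Sec63, which binds Sec62 directly, rose by 0.53 (limma adjusted p = 1.2e-11) and Tram1 by 0.55 (limma adjusted p = 1.0e-06), and the 4 genes of the Sec61 channel did not pass, with changes between -0.03 and 0.13. The same 2 of 6 rose in the F1 crosses. Of 6 UFMylation genes, whose pathway marks ribosomes at the ER, 4 rose in the founders and 3 in the F1 crosses. The ligase Ufl1 rose by 0.82 (limma adjusted p = 3.1e-11).

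Of the 4 LC3 and GABARAP genes with a row, the partners of the receptors on the autophagosome, 2 fell in the founders and the others did not pass (Gabarap 0.01, Gabarapl2 0.09). Map1lc3a fell by 0.36 (limma adjusted p = 4.1e-05) and Gabarapl1 by 0.21 (limma adjusted p = 6.6e-04). In the F1 crosses Gabarapl1 fell by 0.23 (limma adjusted p = 0.0020), and Map1lc3a, at -0.20, did not pass (limma adjusted p = 0.065). Map1lc3b was not analysed here. Of 10 LC3 conjugation enzymes 3 rose, among them Atg12 by 0.37 (limma adjusted p = 8.6e-08) and Atg5 by 0.31 (limma adjusted p = 1.7e-04).

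The 17 genes of autophagosome initiation were divided, with 6 higher and 4 lower in the founders. Tmem41b, an ER lipid scramblase, rose by 0.73 (limma adjusted p = 2.7e-08) and Rb1cc1, the scaffold FIP200, by 0.61 (limma adjusted p = 1.2e-08). Ulk1, the initiating kinase, fell by 0.46 (limma adjusted p = 1.8e-07) and the lipid transfer protein Atg2a by 0.45 (limma adjusted p = 2.3e-05). Of 6 TFEB-family and FoxO factors 2 rose and 1 fell. Tfeb fell by 0.78 in the founders (limma adjusted p = 1.3e-08) and by 0.48 in the F1 crosses (limma adjusted p = 2.0e-04). Mitf and Foxo1 rose by 0.47 and 0.31 in the founders (limma adjusted p = 9.2e-04 and 2.1e-04) and did not pass in the F1 crosses. The difference between sets was not tested.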

How the data were processed

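MEFs of 13 genotypes were profiled by single-end mRNA sequencing after TM or DMSO. The authors aligned reads with TopHat 1.4.1 to strain-specific genomes (GRCm38/mm10 per the submitters' processing notes), applied TMM scaling (edgeR), dropped outlying libraries by principal components and rescaled the remainder. The deposited values are called FPKM, but they are signal per gene in whole multiples of a step per library (tolerance 0.01). That makes them reads scaled to library size (TMM). Read numbers were used as recovered for 66 of 68 libraries. The tests were designed for FPKM and kept. The F1 tables hold 3 lines that name no gene, 15.5% to 24.1% of reads, which were left out. The members and lists were chosen with earlier results of these data known.

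Values were analysed as log2(value + 0.1) with limma 3.58.1 (R 4.3.3), so fold changes are on that scale and are understated for low genes. Genes needed a value of 0.5 in 2 libraries of a genotype, or 4 of a set. Fits were made within each genotype (adjusted p below 0.01 and 1.5 fold) and over each set, with Benjamini-Hochberg adjustment over all genes tested. Named genes were all members, the 2 largest rises and falls per list, and 5 (Fam134c) or 2 (others) most correlated genes with a mean of at least 5. Of these, 2 genes are not reported here. Library sizes limit precision, and values of few reads carry counting error. Alternatives covered the pseudocount, filter, scaling, variance prior, replicate block, leaving out each library, and, chosen after seeing the data, edgeR 4.0.16 on recovered reads and sets of libraries left out. Positions are from GENCODE M21 (GRCm38). Promoters are from RefSeq and were found for all 7 named genes. Scripts in Python 3.11.15 and R were tested on simulated data. Replicate numbers were not used to pair libraries in the main fits.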

Additional observations from a re-analysis of the deposited data

Results flagged for a closer look

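Rtn3 moved one way in some founders and the other way in another, judged by whole groups of libraries. In 129 every TM library (160.2, 168.5 and 148.4) lay above every control (148.1 and 137.9), a log2 change of 0.15, and in CAST likewise (145 and 139 against 137 and 138), a change of 0.051. In B6 every TM library (152 and 149) lay below every control (155 and 153), a change of -0.032. The difference between these strains was not tested, and with 2 or 3 libraries a side such separations are common, as 21.3% of all pairs of gene and genotype had every TM library above every control and 22.4% below.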

How the results depend on the processing

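Results are those of limma on log2(value + 0.1). Member calls within genotypes were 1 higher and 9 lower. With a prior variance without trend they were 0 higher and 2 lower (Fam134c in PWK and x129). Higher calls were 3 in 1 fit over each set (Sec62 in xNOD, 129 and WSB) and 2 at an adjusted p below 0.05 (Sec62 in xNOD and WSB). Leaving out 1 library at a time gave 0 to 2 higher and 8 to 10 lower calls, with Fam134a in xNOD among them without TM replicate 2. Members with a strain effect on control level numbered 0, 0 to 2 with 1 library left out, and 2 (Fam134c and Tex264) without the control libraries numbered 1. The averaged change of Fam134c stayed between -1.53 and -1.40 in the founders and between -1.52 and -1.32 in the F1 crosses. Replicate numbers did not pair libraries consistently: over 29 pairs the correlation of deviations ran from -0.667 to 0.565 (median 0.0133), with 11 above 0.1. With 2 or 3 libraries per group these correlations cannot exclude a pairing. With the replicate block, pathway genes lower in the founders were 5 in place of 11 and higher ones 24 in place of 34, and the averaged change of Fam134c was -1.45. In the 11 genotypes that a block allows, lower calls numbered 7 (all Fam134c) and higher calls 1 (Sec62) with and without it, though 129 gained both calls (Fam134c and Sec62), xNZO lost that of Fam134c and xNOD that of Sec62. Median-of-ratios scaling moved the median of all genes from -0.04 to -0.05 in the founders.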

Other observations

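Replicate numbers and member values went together in 2 places that were seen in the data and not looked for. The TM library numbered 3 had the lowest Rtn3 of its genotype in 12 of 12 genotypes that had such a library, as did 63 of 12622 genes in both sets of tables (0.499%). The control library numbered 1 had the highest Tex264 of its genotype in 8 of 8 genotypes, and 52 genes (0.412%) shared that place. Without those controls the averaged log2 change of Tex264 was -0.15 in the founders and -0.08 in the F1 crosses, in place of -0.17 and -0.15. Leaving out the highest controls could only move it upward. In the founders the TM libraries numbered 3 had a median of 17129374 reads on genes, against 10030838 for number 1 and 9385092 for number 2. In the F1 crosses the medians were 12236979, 11862750 and 14858403. The part of depth in these values was not tested.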
